A study of Homo sapiens with 8 samples.

Results

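The APOBEC3 genes encode a family of cytidine deaminases. The family was taken by name, as the genes APOBEC3A to APOBEC3H in the deposited table of normalized counts. Of the 7 genes named, 6 of the 18216 genes in the table were analysed, namely APOBEC3B, APOBEC3C, APOBEC3D, APOBEC3F, APOBEC3G and APOBEC3H. APOBEC3A was not analysed here. PolyA RNA came from IMR90, a human fibroblast line derived from lung, at passage 28, grown in 3% oxygen with 10% serum. The day after splitting, the cells received DMSO, the solvent control, or Nutlin-3a at 3 µg/mL, with 2 libraries in each of the groups DMSO, Nutlin-3a 6 h, Nutlin-3a 9 h and Nutlin-3a 12 h. Nutlin-3a occupies the p53-binding pocket of MDM2, the ubiquitin ligase that holds p53 down, so that p53 accumulates. No genotype or transgene is given for any group, and no cells lacking p53 were among the samples.

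APOBEC3 enzymes turn cytosine into uracil in single-stranded DNA. They are best known for damaging the DNA copies of retroviruses such as HIV-1, and several members also hold back endogenous retroelements. APOBEC3B is largely nuclear and has been linked to clustered cytosine mutations in tumours, whereas APOBEC3G and APOBEC3F are mainly cytoplasmic. In other human cells, p53 activity has been reported to lower APOBEC3B through p21 and the DREAM repressor complex and to raise APOBEC3C and APOBEC3H. The comparisons below ask how each member's RNA differed under Nutlin-3a and how that differed with time.

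The genes lie side by side on chromosome 22, between CBX6 and CBX7, in the order A, B, C, D, F, G, H in RefSeq's GRCh38.p14 annotation. Each protein carries 1 or 2 zinc-binding deaminase motifs, in which a histidine and a pair of cysteines hold the zinc and a glutamate takes part in the reaction. APOBEC3A, APOBEC3C and APOBEC3H have 1 such motif, and APOBEC3B, APOBEC3D, APOBEC3F and APOBEC3G have 2. The coding sequences of the motifs that share the most letters are shown, because a read lying wholly within an identical stretch cannot be assigned to a single gene. They were read 5′ to 3′ from the GENCODE release 29 transcripts (GRCh38), and capitals mark the codons of the histidine, the glutamate and the pair of cysteines.
APOBEC3B motif 1, the same in APOBEC3F motif 1: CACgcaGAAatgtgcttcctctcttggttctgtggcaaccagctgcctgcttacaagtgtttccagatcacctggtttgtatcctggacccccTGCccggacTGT
APOBEC3B motif 2, the same in APOBEC3A: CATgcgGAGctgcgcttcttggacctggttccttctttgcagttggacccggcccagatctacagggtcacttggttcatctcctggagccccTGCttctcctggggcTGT
APOBEC3C motif: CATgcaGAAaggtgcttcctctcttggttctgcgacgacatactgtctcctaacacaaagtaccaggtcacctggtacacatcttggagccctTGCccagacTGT
APOBEC3D motif 2, the same in APOBEC3F motif 2: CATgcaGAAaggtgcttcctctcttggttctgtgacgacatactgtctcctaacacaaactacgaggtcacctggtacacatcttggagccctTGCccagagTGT
APOBEC3B motif 1 matched APOBEC3F motif 1 at 105 of 105 bases, and APOBEC3D motif 2 matched APOBEC3F motif 2 at 105 of 105. APOBEC3B motif 2 matched that of APOBEC3A at 111 of 111 bases. The APOBEC3C motif matched APOBEC3F motif 2 at 101 of 105 bases, or 96.2%.

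Over whole transcripts, the share of 100-base windows with an exact copy in another APOBEC3 gene was 36.5% for APOBEC3B, 13.5% for APOBEC3F, 11.3% for APOBEC3G and 9.18% for APOBEC3D. It was 0% for APOBEC3C and APOBEC3H. With 50-base windows it was 50.5% for APOBEC3B and 1.16% for APOBEC3C. The read length is not given in the sources used here, and reads aligning in several places were kept apart from gene counts in the deposited table. Counts of APOBEC3B, APOBEC3D, APOBEC3F and APOBEC3G are therefore less certain as absolute levels than those of APOBEC3C. APOBEC3B also overlaps an antisense gene, APOBEC3B-AS1, and because the strand setting of the counting is not given, reads of the overlap cannot be told apart.

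The libraries held 21.9 to 33.6 M gene reads (M, 1e6 reads). Replicates were closer under Nutlin-3a, where the SD of their log2 difference over 11461 genes was 0.118 to 0.129, against 0.174 in DMSO. MDM2 and CDKN1A, the gene of the cell-cycle inhibitor p21, are direct targets of p53. MDM2 averaged 8.18, 8.58 and 8.71 times its DMSO level at 6, 9 and 12 h, and CDKN1A 11.1, 14.4 and 14.9 times. All 11 fibroblast markers listed were present, led by COL1A1. It is not stated whether replicates were separate cultures or how long the DMSO cells were kept. The p-values therefore rest on the spread among these 8 libraries, part or all of which may be technical. A single DMSO group served all times, so exposure and time in culture cannot be told apart.

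APOBEC3C and APOBEC3B dominated the family. Levels between genes were compared as normalized counts (reads scaled for library size by the authors) per kilobase of the GENCODE transcript. In DMSO, APOBEC3C was at 310 ± 8.31 and APOBEC3B at 304 ± 10.4 per kb (SD, n = 2), and their ranges overlapped. APOBEC3F followed at 22.2 ± 3.63, APOBEC3G at 12.9 ± 6.64, APOBEC3D at 1.60 ± 0.465 and APOBEC3H at 0.544 ± 0.769 per kb. The APOBEC3F range, 19.6 to 24.7 per kb, lay above that of APOBEC3G, 8.20 to 17.6. Per kilobase of coding sequence instead, APOBEC3C stood at 1533 ± 41.1 and APOBEC3B at 407 ± 13.9 in DMSO, since the APOBEC3C transcript is 2818 bases long with 570 coding. The gap within this leading pair in DMSO thus depends on the length used.

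At 12 h of Nutlin-3a the order per transcript kilobase was APOBEC3C at 694 ± 28.2, APOBEC3B at 180 ± 8.40, APOBEC3F at 37.4 ± 2.10, APOBEC3G at 21.1 ± 1.74, APOBEC3D at 5.44 ± 2.20 and APOBEC3H at 4.06 ± 1.28. Each of the first 4 stood clear of its neighbours. The ranges of APOBEC3D and APOBEC3H overlapped, APOBEC3D lying at 3.88 per kb in its lower library and APOBEC3H at 4.97 in its higher.

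After 6 h, APOBEC3C rose and no other member passed the test. The test was limma on log2(normalized count + 1), with a Benjamini-Hochberg adjusted p at or under 0.05 over 14074 genes tested. Of the 5 APOBEC3 genes tested, 1 rose and 0 fell, and an unadjusted limma p under 0.05, edgeR and DESeq2 gave these counts too, while 36.7% of all genes tested were called at 6 h (16.1% higher and 20.6% lower). APOBEC3D passed the filter on low values only through libraries of 9 h and 12 h, where it therefore had to be high, and is left out of the counts and medians that follow. Of the other 4 genes tested, 3 rose after 9 h (APOBEC3C, APOBEC3F and APOBEC3G) and APOBEC3B fell, beside 35.3% of all genes called (16.2% higher and 19.1% lower). After 12 h APOBEC3C, APOBEC3F and APOBEC3G rose and APOBEC3B fell, beside 39.9% of all genes called (18.5% higher and 21.4% lower). The median change of these 4 members was 0.32 at 6 h, 0.80 at 9 h and 0.77 at 12 h on the log2 scale, against −0.01, 0.01 and 0.01 over all genes tested. The 3 times share their DMSO libraries, so these are not independent results. Quantile normalization moved the 12 h background to 3369 genes higher and 2482 lower (57.6% higher), beside 2603 and 3007 (46.4% higher) here, and left the calls of these 4 the same apart from APOBEC3G, whose call was lost.

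**Figure D1:**
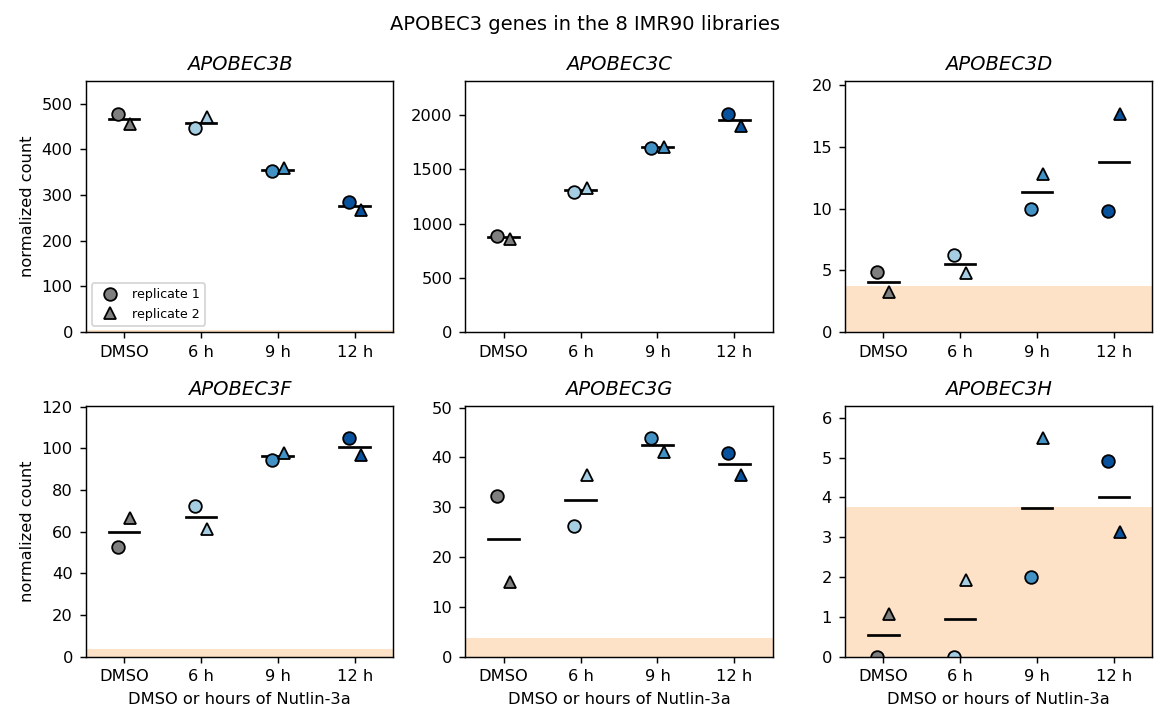
Normalized counts of the 6 APOBEC3 genes (y axes, each with its own range) in DMSO and after 6, 9 and 12 h of Nutlin-3a. Circles and triangles are replicates 1 and 2, bars are means, and the shaded band ends at the highest value that 3 reads stand for in any library, 3.75. APOBEC3C climbs at each step while APOBEC3B lies lower at 9 h and 12 h, and APOBEC3H stays in or near the band.

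APOBEC3C, a protein with a single deaminase domain found in nucleus and cytoplasm, carried the largest number of reads. Its normalized count was 890 and 857 in the DMSO libraries (replicates 1 and 2), 1291 and 1326 at 6 h, 1696 and 1711 at 9 h, and 2013 and 1900 at 12 h. Every step was upward and no group overlapped another. The mean was 1308 ± 24.9 at 6 h, 1703 ± 10.8 at 9 h and 1956 ± 79.5 at 12 h, against 874 ± 23.4 in DMSO (SD, n = 2). The log2 change against DMSO was 0.58 ± 0.06 (SE) at 6 h with a limma adjusted p of 8.54e-08. It was 0.96 ± 0.06 at 9 h (limma adjusted p 2.35e-11) and 1.16 ± 0.06 at 12 h (limma adjusted p 7.21e-13), where the fold of means was 2.24. On the log2 scale about as much was gained before 6 h as after it. The 6 h log2 change was 50.1% of the 12 h log2 change. Of all genes tested, 98.7% had a lower change at 12 h.

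APOBEC3B, a protein with 2 deaminase domains, was the only member to fall. Its normalized count was 478 and 456 in DMSO, 447 and 471 at 6 h, 353 and 359 at 9 h, and 286 and 267 at 12 h. The 6 h libraries overlapped DMSO, whereas those at 9 h and 12 h lay below both earlier groups. At 6 h the log2 change was −0.03 with a 95% interval of −0.20 to 0.15, and its sign turned under quantile normalization (0.03). At 9 h APOBEC3B fell by 0.39 ± 0.08 (SE, limma adjusted p 0.000951). At 12 h it fell by 0.75 ± 0.08 (limma adjusted p 3.01e-07), to 277 ± 12.9, against 467 ± 15.9 in DMSO, which is 0.592 of the DMSO mean. Of all genes tested, 5.76% had a still lower change at 12 h.

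APOBEC3F, a restriction factor of HIV-1 with 2 domains, was low but well above the floor of 3 reads, which is worth a normalized count of 2.46 to 3.75. Its normalized count was 52.8 and 66.6 in DMSO, 72.5 and 61.5 at 6 h, 94.6 and 97.7 at 9 h, and 105 and 96.8 at 12 h. The 6 h and DMSO libraries overlapped, and the 9 h and 12 h libraries lay above all of these. At 6 h the log2 change was 0.17 (95% interval −0.18 to 0.52). At 9 h APOBEC3F rose by 0.69 ± 0.17 (SE, limma adjusted p 0.00290) and at 12 h by 0.75 ± 0.17 (limma adjusted p 0.00113), or 1.69-fold in means. The 9 h log2 change was 91.3% of the 12 h log2 change.

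APOBEC3G, another restriction factor of HIV-1 with 2 domains, had DMSO libraries that lay far apart. Its normalized count was 32.3 and 15.0 in DMSO (33 and 14 reads), 26.3 and 36.5 at 6 h, 43.8 and 41.1 at 9 h, and 40.9 and 36.4 at 12 h. The 9 h and 12 h libraries lay above both DMSO libraries, by little in the case of replicate 1. The log2 change was 0.47 at 6 h (95% interval −0.15 to 1.09), and APOBEC3G rose by 0.91 ± 0.30 at 9 h (SE, limma adjusted p 0.0214) and by 0.78 ± 0.30 at 12 h (limma adjusted p 0.0429). Without DMSO replicate 2 these changes were −0.06 at 6 h, 0.39 at 9 h and 0.25 at 12 h, and none was called, whereas without DMSO replicate 1 the 6 h change was 0.996 and called. The 12 h call was lost in 12 of 19 alternatives, and an F test over the 4 groups gave an adjusted p of 0.0564 with limma.

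APOBEC3D, also with 2 domains, had few reads. Its normalized count was 4.89 and 3.22 in DMSO (5 and 3 reads), 6.25 and 4.80 at 6 h, 9.96 and 12.8 at 9 h, and 9.82 and 17.7 at 12 h (12 and 17 reads). All 4 libraries of 9 h and 12 h lay above the other 4. The gene passed the filter, a value of 10 in at least 2 libraries, only through replicate 2 at 9 h and at 12 h, so that it had to be high there. The log2 change was 0.38 at 6 h (95% interval −0.65 to 1.41), 1.30 ± 0.49 at 9 h (SE, limma adjusted p 0.0454) and 1.51 ± 0.49 at 12 h (limma adjusted p 0.0186). These p-values are given as a description, because the filter chose the gene by its values at 9 h and 12 h. With no filter on low values they were 0.0364 at 9 h and 0.0129 at 12 h with limma. At the threshold of 0.05 the 9 h call was lost in 9 of 17 alternatives, and the 12 h call without DMSO replicate 2 (1.27) or without 12 h replicate 2 (1.12).

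APOBEC3H, a single-domain enzyme, stayed under the filter and was not tested. Its reads numbered 0 and 1 in DMSO, 0 and 2 at 6 h, 2 and 6 at 9 h, and 6 and 3 at 12 h. The 0 in DMSO replicate 1 allows a normalized count of up to 2.93, and that in 6 h replicate 1 up to 3.75. Summed over libraries and scaled, the 12 h group had 8.06 times the DMSO reads (9 against 1), with an exact interval of 1.12 to 353. The 9 h group had 7.45 times (8 against 1), with an interval of 0.998 to 330. At 6 h the ratio was 2.12 (2 against 1), with an interval of 0.111 to 125. These 95% intervals were taken on reads summed over the 2 libraries of a group and allow for counting error alone. They leave out variation between libraries, and reads copied by PCR, which carried no mark.

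**Figure D2:**
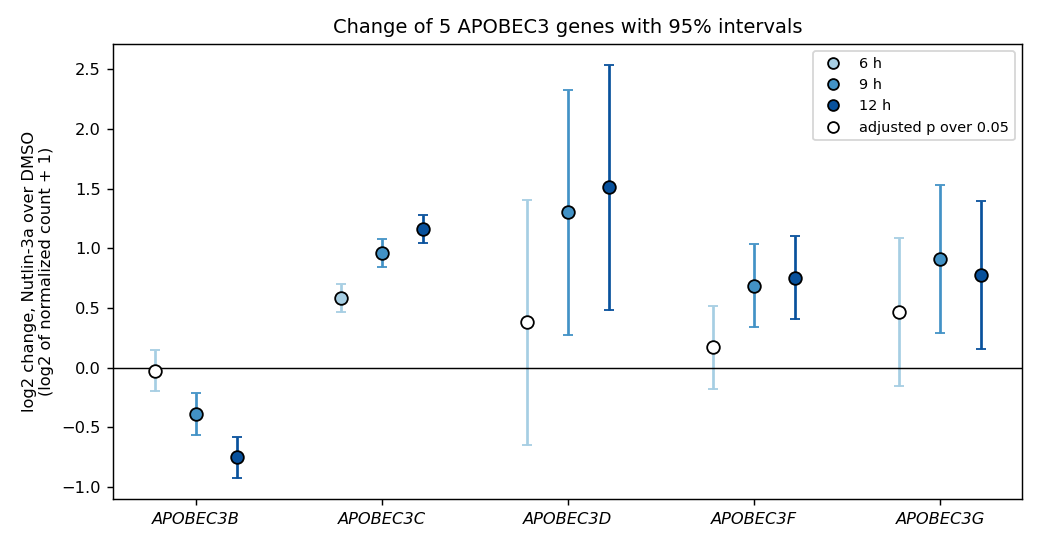
Log2 change of the 5 tested APOBEC3 genes over DMSO after 6, 9 and 12 h of Nutlin-3a (y axis, on log2 of normalized count + 1), with 95% limma intervals. Filled points passed the adjusted threshold. APOBEC3B falls away from 0 after 6 h, to −0.75 at 12 h, while APOBEC3C stands at 0.58 by 6 h, and the intervals of APOBEC3D and APOBEC3G are wide.

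The Nutlin-3a times were also set against each other, a comparison whose log2 changes do not use the DMSO values, although the DMSO libraries enter the shared spread and so the p-values. From 6 to 9 h, 2 members rose and 1 fell, where 18.4% of all genes tested were called (8.52% higher and 9.9% lower). APOBEC3C rose by 0.38 ± 0.06 (SE, limma adjusted p 6.42e-05) and APOBEC3F by 0.52 ± 0.17 (limma adjusted p 0.0350), and APOBEC3B fell by 0.37 ± 0.08 (limma adjusted p 0.00373). Without 6 h replicate 2, APOBEC3C alone was called, and the APOBEC3F call was lost whenever any Nutlin-3a library was left out. The APOBEC3F call was also lost under quantile normalization, without an intensity trend and with DESeq2. APOBEC3D (0.92, 95% interval −0.11 to 1.95) and APOBEC3G (0.44, −0.18 to 1.06) were not called.

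From 9 to 12 h only APOBEC3B was called, where 4% of all genes tested were called (1.08% higher and 2.92% lower). That background of 563 genes was 1258 without DMSO replicate 1, 1254 without DMSO replicate 2 and 266 to 287 without a 9 h or 12 h library. APOBEC3B fell by 0.36 ± 0.08 (SE, limma adjusted p 0.0127), but the call was lost whenever a 9 h or a 12 h library was left out. APOBEC3C had a change of 0.20 (95% interval 0.08 to 0.32, limma adjusted p 0.0567), which was called when either DMSO library was left out. APOBEC3F (0.07, −0.28 to 0.42), APOBEC3D (0.21, −0.82 to 1.24) and APOBEC3G (−0.13, −0.75 to 0.49) had intervals around 0. Measured against the whole 12 h log2 change, APOBEC3B had covered 3.33% by 6 h and 51.8% by 9 h. APOBEC3C had covered 50.1% and 82.9%.

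From 6 to 12 h, APOBEC3C and APOBEC3F rose and APOBEC3B fell, where 31.5% of all genes tested were called (14.4% higher and 17.1% lower). The log2 changes were 0.58 ± 0.06 for APOBEC3C (SE, limma adjusted p 1.14e-07), 0.58 ± 0.17 for APOBEC3F (limma adjusted p 0.0107) and −0.73 ± 0.08 for APOBEC3B (limma adjusted p 9.27e-07). APOBEC3F was not called without 6 h replicate 2 (0.47) or without 12 h replicate 1 (0.53). With DESeq2 the APOBEC3F call was lost as well. In the F test over the 4 groups together, APOBEC3B, APOBEC3C and APOBEC3F were called and APOBEC3G was not, where 49.9% of all genes tested were called.

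The division of the family's reads among its members had no overlap between groups for the leading pair. APOBEC3B held 32.8% and 32.6% of the family's reads in DMSO, 24.2% and 24.8% at 6 h, 16.0% and 16.1% at 9 h, and 11.6% and 11.5% at 12 h. APOBEC3C held 61.1% and 61.3% in DMSO, 70.1% and 69.7% at 6 h, 77.1% and 76.8% at 9 h, and 81.9% and 81.8% at 12 h. Replicates lay within 1 percentage point of each other for both genes. Reads of APOBEC3C per read of APOBEC3B were 1.86 and 1.88 in DMSO, 2.89 and 2.82 at 6 h, 4.81 and 4.77 at 9 h, and 7.05 and 7.11 at 12 h. This ratio is taken within a library, so no scaling between libraries enters it. The family's summed normalized count was 2390 ± 96.9 at 12 h, against 1429 ± 42.1 in DMSO (SD, n = 2).

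**Figure D3:**
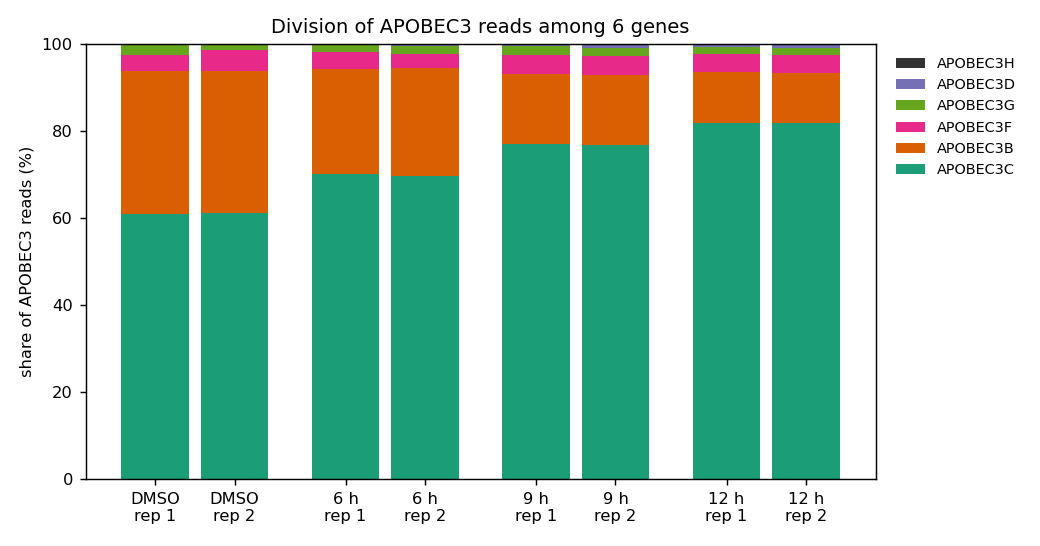
Share of each library's APOBEC3 reads (y axis, %) held by each of the 6 genes, in 2 libraries each of DMSO and Nutlin-3a at 6, 9 and 12 h. The shares are of reads, not of molecules per length. APOBEC3B shrinks to 11.6% and 11.5% at 12 h as APOBEC3C takes up 81.9% and 81.8%.

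The genes whose profiles over the 8 libraries were most like each member were taken from 11460 genes by Pearson r on the log2 scale. All points share the same libraries, and r describes shape only. For APOBEC3C these were NRG1 (0.997), the gene of the growth factor neuregulin 1, MVP (0.997), the major vault protein, and ISCU (0.995), an iron-sulphur cluster scaffold. At 12 h NRG1 was 1.27 above DMSO in log2, ISCU 1.02 and MVP 0.46, beside 1.16 for APOBEC3C. For APOBEC3B they were RNF115 (0.994), a ubiquitin ligase, LRWD1 (0.991), a partner of the origin recognition complex, and ADGRE5 (0.991), the adhesion receptor CD97. Their 12 h log2 changes, −0.30, −0.37 and −0.25, were smaller than the −0.75 of APOBEC3B. For APOBEC3F they were WDR5B (0.987), CROT (0.983), a peroxisomal carnitine acyltransferase, and DENND4C (0.983). Between members, r was −0.857 for APOBEC3B with APOBEC3C and 0.895 for APOBEC3C with APOBEC3F.

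Of 12 listed neighbours of the cluster on chromosome 22, all tested, 0 rose and 4 fell at 12 h, with a median log2 change of −0.09. Over all genes tested, 18.5% were called higher and 21.4% lower at 12 h. None of the 12 neighbours was higher at an unadjusted limma p under 0.05 or with edgeR or DESeq2. JOSD1 (−0.23), a deubiquitinase, GTPBP1 (−0.29), a GTP-binding protein, SUN2 (−0.29), a nuclear envelope protein, and CBX6 (−0.27), a Polycomb protein next to the cluster, fell. CBX7, the Polycomb gene on the other side, had −0.32 ± 0.13 (SE) at 12 h and a limma adjusted p of 0.0580. PDGFB, beyond it, rose by 1.64 ± 0.35 at 6 h (limma adjusted p 0.000843) and had −0.08 ± 0.35 at 12 h. CBX7 and PDGFB were singled out for their place after their values were seen.

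**Figure D4:**
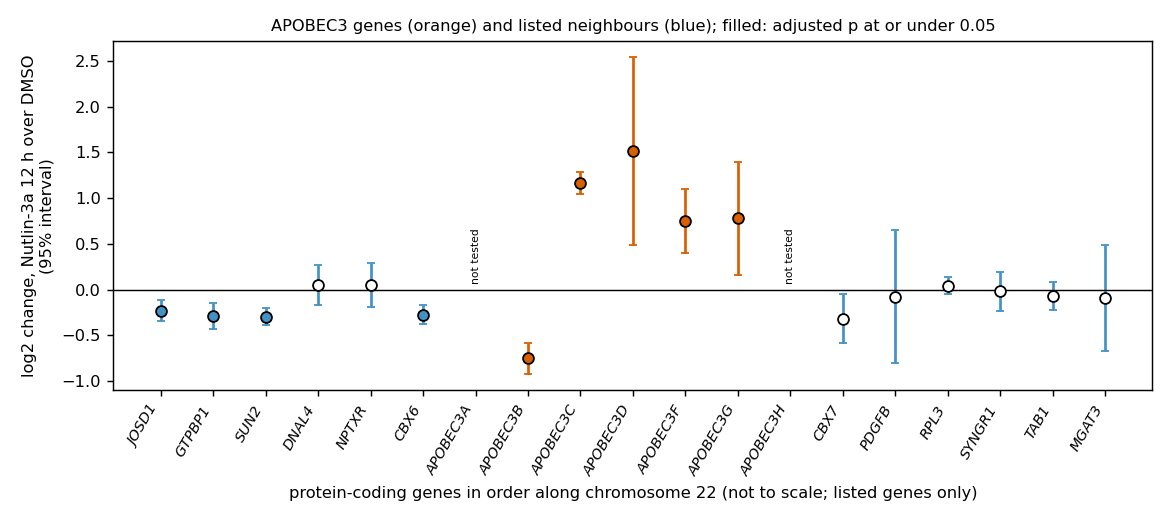
Log2 change at 12 h of Nutlin-3a over DMSO (y axis, 95% limma intervals) of the APOBEC3 genes (orange) and the listed neighbours (blue), in their order along chromosome 22 and not to scale. Filled points passed the adjusted threshold. APOBEC3C to APOBEC3G lie above 0 and APOBEC3B below it, while the 12 neighbours stay between −0.32 and 0.05. APOBEC3D is among the points above 0, but the filter chose it by its values at 9 h and 12 h.

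Of 12 other deaminases of nucleic acids and nucleotides, 7 were tested, and at 12 h 1 rose and 2 fell with a median of −0.13. Over all genes tested, 18.5% were called higher and 21.4% lower at 12 h. ADARB1, an adenosine deaminase that edits RNA, rose by 0.33 ± 0.05 (SE, limma adjusted p 3.19e-05). ADAR, the other RNA editor, fell by 0.13 ± 0.05 (limma adjusted p 0.0381) and ADAT1, which edits tRNA, fell by 0.25 ± 0.08 (limma adjusted p 0.0131), but neither was called under quantile normalization. ADAT2, a subunit of another tRNA deaminase, had −0.26 ± 0.13.

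Uracil left in DNA by APOBEC3 enzymes is removed by uracil-DNA glycosylase and the base excision pathway. A list of 16 genes held this pathway and some genes beside it. DUT, REV1 and HMCES act outside it, and PCNA and LIG1 also serve replication. All 16 were tested. At 6 h 0 rose and 9 fell, at 9 h 1 rose and 10 fell, and at 12 h 1 rose and 12 fell. The medians were −0.31, −0.31 and −0.38. Over all genes tested, 20.6%, 19.1% and 21.4% were called lower at 6, 9 and 12 h, and 16.1%, 16.2% and 18.5% higher. At 6 h 1 of the 16 was higher at an unadjusted limma p under 0.05, and 0 with edgeR or DESeq2. UNG, the main uracil glycosylase, fell, with log2 changes of −1.20, −1.61 and −1.38 at 6, 9 and 12 h, each ± 0.07 (SE). FEN1, a flap nuclease also used in replication, fell at 12 h (−2.15 ± 0.06), as did PARP1, a sensor of strand breaks (−1.09 ± 0.05), and XRCC1, a scaffold of this pathway (−0.77 ± 0.07). SMUG1, another uracil glycosylase, rose by 0.49 ± 0.11 at 9 h and 0.31 ± 0.11 at 12 h (limma adjusted p 0.0380). When either 12 h library was left out, no member was called higher at 12 h.

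Another list held 20 genes that act on retroviruses or retroelements by other means, not all of them restriction factors. Of these 19 were tested, and 4 rose (21.1%) and 4 fell (21.1%) at 12 h, shares near the 18.5% and 21.4% of all genes tested. Their median was −0.05, though without DMSO replicate 2 there were 8 that fell. TRIM22, an antiviral protein known as a p53 target, rose by 1.71, 2.27 and 2.40 at 6, 9 and 12 h, each ± 0.06 (SE). TRIM5, which recognises retroviral capsids, rose by 0.23 ± 0.06, 0.53 ± 0.06 and 0.60 ± 0.06. RNASEH2A, the catalytic subunit of ribonuclease H2, fell at 12 h (−1.18 ± 0.08), as did TRIM28, a corepressor that silences endogenous retroviruses (−0.38 ± 0.05).

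Several APOBEC3 genes are known to respond to interferon. Of 30 listed interferon-stimulated genes, 25 were tested, and 4 rose (16.0%) and 6 fell (24.0%) at 12 h, with a median of 0.01, near the 18.5% and 21.4% of all genes tested. Without 12 h replicate 1 there were 2 that rose, and without replicate 2 there was 1. OAS3, an antiviral sensor of double-stranded RNA, fell (−1.22 ± 0.11, SE), as did DTX3L (−0.42 ± 0.08), a ubiquitin ligase. STAT2, a transcription factor of the interferon response, rose by 0.40 ± 0.06 and DDX58, the RNA sensor RIG-I, by 0.31 ± 0.08.

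Genes of the DREAM complex and of the cell-cycle factors B-MYB and FOXM1 were listed because APOBEC3B has been reported as their target. The list also held E2F1 and E2F2, which are not part of that complex. Of 15, all tested, 14 fell at 6 h, 13 at 9 h and 12 at 12 h, and 0 rose, with medians of −0.58, −0.61 and −0.75. The shares of all genes tested called lower at these times were 20.6%, 19.1% and 21.4%, and those called higher 16.1%, 16.2% and 18.5%. At an unadjusted limma p under 0.05, 1 of the 15 was higher at 9 h and 0 at 6 h and 12 h. With edgeR and DESeq2, 0 of the 15 were called higher at each time. E2F1, an activator of S-phase genes, fell, with log2 changes of −1.14, −1.95 and −2.67 at 6, 9 and 12 h, each ± 0.08 (SE). MYBL2, the gene of B-MYB, also fell, with −0.90, −1.52 and −2.20, each ± 0.09. RBL1, a pocket protein, and LIN9, a core subunit, both fell by 2.07 at 12 h.

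**Figure D5:**
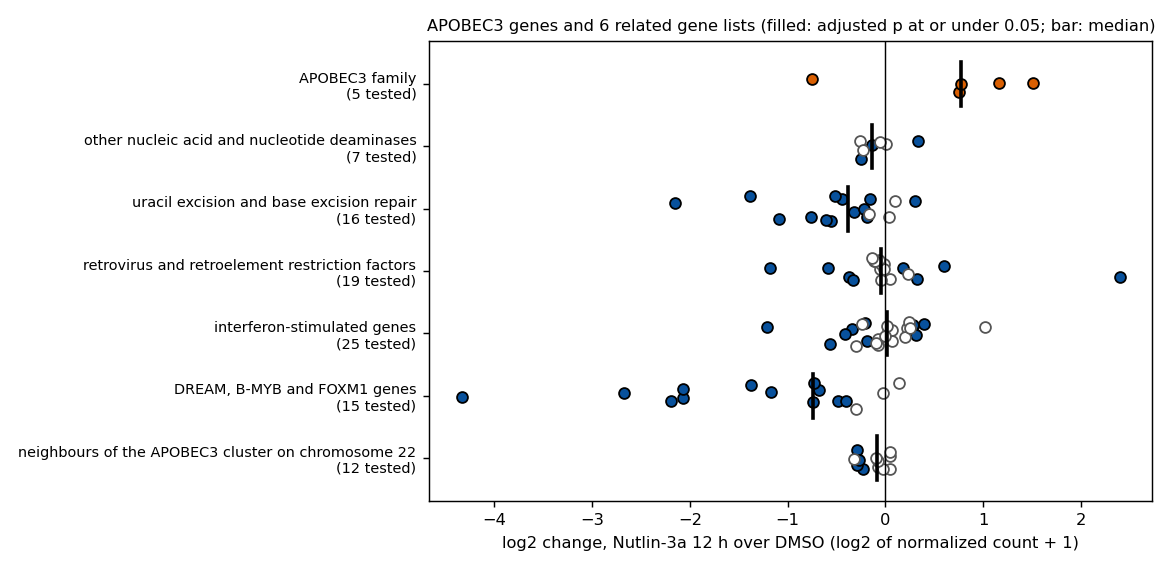
Log2 change at 12 h of Nutlin-3a over DMSO (x axis, log2 of normalized count + 1) of every tested gene in the APOBEC3 family and in 6 related lists. Filled points passed the adjusted threshold and bars are medians. The family bar, at 0.78 over 5 genes, includes APOBEC3D, which the filter chose by its values at 9 h and 12 h. Without APOBEC3D the family median is 0.77. The medians of the DREAM, B-MYB and FOXM1 list and of the uracil excision and base excision repair list are −0.75 and −0.38.

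Lymphocytes and myeloid cells express several APOBEC3 genes, so their markers were read as well. Of 10 T and NK cell markers, 4 had values, and their summed normalized count was 556 to 598 at 12 h, against 386 to 460 in DMSO. CD4 made up most of it, with a mean of 488, while PTPRC, the gene of CD45, lay at 0.914 to 5.77 and GNLY at 0 to 2.99. Of 6 myeloid markers, 4 had values, with a sum of 928 to 985 at 12 h, against 750 to 923 in DMSO. CD68 led with a mean of 874 and CD14 lay at 1.83 to 6.73. The 3 B cell markers with values summed to 4.16 to 12.3 at 12 h and 6.45 to 7.82 in DMSO. The 4 endothelial markers with values summed to 1433 to 1503 at 12 h and 1967 to 2071 in DMSO, led by TEK, with CDH5 at 0 to 6.55, and the 5 epithelial ones to 2483 to 2582 and 2712 to 2748, led by KRT18, with CDH1 at 0.996 to 3.75. The 11 fibroblast markers summed to 1189665 to 1207737 at 12 h and 994967 to 1013673 in DMSO. At 12 h the sums of the fibroblast markers and of those led by CD4 and CD68 were higher, like APOBEC3C. Those led by TEK and KRT18 were lower, like APOBEC3B. The likeness held in part at earlier times. At 9 h the fibroblast sum, 1150779 to 1161194, lay above DMSO. So did the sums led by CD4 (515 to 529) and CD68 (951 to 1011). The sum led by TEK, 1576 to 1677, lay below DMSO at 9 h. At 6 h the fibroblast sum, 976777 to 986724, lay below DMSO, and those led by CD4, CD68 and TEK overlapped it. The sum led by KRT18 lay above DMSO at 6 h (3282 to 3470) and at 9 h (2905 to 2926). The part of these markers in the results was not tested. In bulk RNA, fewer cells of a type and less RNA per cell cannot be told apart.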

How the data were processed

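PolyA RNA of 8 libraries was sequenced. STAR, DESeq2 and the genome build hg19 are named, without versions, per the submitters' processing notes. The program that counted reads, how it treated strand and which gene models it used were not given in the sources used here, although per the labels' protocols the library kit marks the strand. The authors deposited a normalized signal, gene counts divided by a size factor per library, for 18216 genes and 3 entries that name no gene. Those entries, 28.2 to 29.1% of each total, were left out. The authors also deposited DESeq2 tables of log2 fold changes (DMSO over Nutlin-3a, turned round here), p-values, adjusted p-values and a score (the Wald statistic). Only their log2 values and adjusted p-values were used, as an alternative.

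Dividing each library's values by that of 1 read gave whole numbers within 1e-06 in 100% of cases, which recovers the reads. The 14074 genes that reached 10 in 2 or more libraries were tested with limma 3.58.1 in R 4.3.3, with an intensity trend, on log2(normalized count + 1). All 4 groups entered the same model (4 residual and 15.5 prior degrees of freedom). This scale understates changes of genes with low counts. Adjustment was by Benjamini and Hochberg over all genes tested, with a threshold of 0.05. Groups of 2 cannot pass it in an exact permutation test, whose smallest p is 0.333. Alternatives used edgeR 4.0.16 and DESeq2 1.42.0 on recovered reads, other scalings, filters and pseudocounts, a replicate block, and each library left out in turn. Left-out fits with 1 library in a group assume that it varies like the others.

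The members and gene lists were chosen with earlier results of these data known. Named beside the members were MDM2 and CDKN1A, the 4 or fewer genes of each list whose 12 h p was smallest, as many as 2 called genes that went against their list's majority, and, for members with a mean of at least 50, the 3 genes of highest r. A gene this rule took from the lists is not reported here. Sequences and lengths came from GENCODE release 29 and gene order from RefSeq, both GRCh38, a build other than that of the reads, so no coordinates are given.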

Additional observations from a re-analysis of the deposited data

Results flagged for a closer look

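Changes that differed between times of Nutlin-3a, by the limma test of the difference itself, are collected here as values. For APOBEC3B the log2 difference was −0.37 for 9 h against 6 h, −0.36 for 12 h against 9 h and −0.73 for 12 h against 6 h. For APOBEC3C it was 0.38 for 9 h against 6 h and 0.58 for 12 h against 6 h. For APOBEC3F it was 0.52 for 9 h against 6 h and 0.58 for 12 h against 6 h. With DESeq2 both APOBEC3F differences, and that of APOBEC3B for 12 h against 9 h, were not called.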

How the results depend on the processing

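Of 30 changes of single members tested, 17 kept their direction and their side of the threshold under all of their 17 to 20 alternatives. Those of APOBEC3C against DMSO at each time, and of APOBEC3B and APOBEC3F against DMSO at 9 h and 12 h, were among them. Over these alternatives the 12 h log2 change ranged from 1.12 to 1.24 for APOBEC3C, from −0.80 to −0.68 for APOBEC3B and from 0.59 to 0.92 for APOBEC3F. The sign turned in 5 cases, and no turned value was called. For APOBEC3B at 6 h these were quantile normalization (0.0312), leaving out DMSO replicate 1 (0.0095) and leaving out 6 h replicate 1 (0.0131), in a range of −0.0632 to 0.0131 with a library left out. The others were APOBEC3G at 6 h without DMSO replicate 2 (−0.0563, in a range up to 0.9956) and APOBEC3D at 12 h against 9 h without 12 h replicate 2 (−0.1839, in a range up to 0.6045).

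The count of members called at 9 h and at 12 h, APOBEC3D left out, was 4 of the 4 tested here. It was 3 with a mean of at least 50, with DESeq2 on recovered reads and in the authors' deposited table. It was also 3 at both times without an intensity trend. At 12 h it was 3 with quantile normalization, only the 2 groups compared or edgeR. The 3 were APOBEC3B, APOBEC3C and APOBEC3F each time. Over all genes, 4964 were called at 9 h and 5610 at 12 h here. These were 4816 and 5413 with that mean, 3824 and 4432 with DESeq2, and 3767 and 4370 by the authors. Without an intensity trend they were 3686 and 4390. The 12 h number was 5851 with quantile normalization, 4937 with only the 2 groups compared and 5823 with edgeR. A mean of at least 50 removes APOBEC3D and APOBEC3G from the test. APOBEC3D had no adjusted p with DESeq2 or from the authors, so it could not be called there. APOBEC3G was tested by both and not called, and the cause of that was not tested. For 12 h against 9 h the count was 1 here, 2 (with APOBEC3C) with a mean of at least 50, TMM scaling, only the 2 groups compared or edgeR, and 0 without an intensity trend or with DESeq2. With a library left out, the log2 change of APOBEC3G against DMSO ranged from 0.39 to 1.44 at 9 h and from 0.25 to 1.30 at 12 h. For 12 h against 9 h, that of APOBEC3B ranged from −0.41 to −0.32 and that of APOBEC3C from 0.16 to 0.24.

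Same-numbered replicates did not deviate together, with correlations of −0.152 to 0.0914, so the numbers are not taken as pairs. With a replicate block 1 member was called at 6 h, and the 4 tested members other than APOBEC3D were all called at 9 h and at 12 h. APOBEC3D at 9 h was not called with it (log2 change 1.30, limma adjusted p 0.0541). Over all genes 5609 were called at 12 h with the block, against 5610 here. Over all genes, the 2592 called for 9 h against 6 h became 1337 without an intensity trend, 3922 and 3926 without DMSO replicate 1 or 2, and 1350 to 1531 without a 6 h or 9 h library. The 563 for 12 h against 9 h became 174 without a trend and 1387 with only the 2 groups compared. The 4431 for 12 h against 6 h became 2930 without 12 h replicate 2. Depth limits APOBEC3D and APOBEC3H, which had at most 17 and 6 reads in a library.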
